A study of Mus musculus with 2 samples.

Results

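Copying the genome once per cell cycle needs a large set of genes that are switched on together as cells pass from G1 into S phase, and 33 of them are described here on a saline array and an FGF18 array of mouse back skin. They were chosen by name from textbook knowledge of replication licensing, the replicative helicase, the polymerases, nucleotide supply, chromatin assembly and control of the G1/S step. Earlier results of these data were known when the choice was made. All 33 were measured, among 22180 genes with a symbol of their own on the array. The samples were total RNA from dorsal skin of male BALB/cAJcl mice aged 7 weeks, a strain without coat pigment, with 1 array for the saline control and 1 for FGF18. FGF18 is a fibroblast growth factor, named in the title of the series beside hair cycle rest. For FGF18, skin had been depilated, which drives follicles into growth (anagen). An intraperitoneal dose of 100 µg FGF18, dissolved in saline that held 5 µg/µl of heparin, followed 6 days afterwards. The body was exposed to 6 Gy of γ-rays 24 h after the injection, and skin was taken 4 h later. The labels state this course for FGF18 and name the control only as saline, so whether the control mouse or mice were depilated on the same schedule or given heparin or radiation, and how many mice stand behind either array, is not given in the sources used here. A difference between the arrays therefore cannot be told apart from a difference in those treatments.

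An origin of replication is licensed in G1, when the origin recognition complex, Cdc6 and Cdt1 load the MCM helicase onto DNA as an inactive ring. At the start of S phase Cdc45 and GINS join that ring and turn it into a moving helicase, polymerases and their clamp follow it, and new histones are laid down behind. E2F transcription factors raise the transcripts of most of these proteins. In anagen skin the matrix cells at the base of the follicle are known to divide fast, and epidermal basal cells also divide.

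Each value is an intensity, the brightness of a gene's probes after the authors' normalization. A difference is the FGF18 value less the saline value after taking log2(intensity + 1), which understates the change of dim genes. With 1 array per group there is no spread between samples, no test and no p-value, and each statement compares these 2 arrays only. A measure of error from another source is the disagreement between probe sets of the same gene. Over 319 symbols with several clusters at or above the median level, a cluster's difference had a standard deviation of 0.24 within its symbol, which holds no variation between animals. The median intensity was 14.0 on the saline array and 13.8 on the FGF18 array. For a gene under its array's median there is no sign that it stood clear of background, and its intensities are then printed with no fold. Of the 33 genes 27 were above the median on both arrays. Intensities of different genes come from different probes and are not set against each other.

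The replication genes differed little between the arrays, and the larger differences lay on the side of FGF18. Of the 33, 24 were higher on the FGF18 array and 9 lower, and the median difference was 0.16. None of the 33 was as much as 2-fold apart. A difference of 0.32 or more to the FGF18 side was found for 8 genes (24.2%), and none differed by as much to the saline side. Over all 22180 genes, 49.5% were higher and 45.5% lower, 12.8% and 13.4% differed by 0.32 or more to the FGF18 and the saline side, and the median difference was 0.00. Brighter genes as a whole leaned the same way. Among the 11090 genes whose mean over the arrays was at or above the median level, 59.4% lay on the FGF18 side and 38.0% on the saline side, the median was 0.07, and 17.4% and 11.5% did so by 0.32 or more. Of the 26 replication genes at or above that level 17 lay on the FGF18 side (65.4%), 6 of the 26 by 0.32 or more (23.1%), and their median was 0.15. The share higher among them was thus near the share among all brighter genes. None of the 27 genes above both array medians reached a difference of 0.58 (1.5-fold), which 2.61% of all genes and 3.64% of brighter genes reached on the higher side and 4.15% and 4.63% on the lower. Of the other 6, Cdc25a alone was past 0.58, and it was below the median on the saline array.

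Set against the disagreement between probe sets, 10 of the 33 genes differed by more than 1 standard deviation, all of them higher, and 3 of the 10 (Cdc25a, Gins1 and Pole) were not among the brighter genes. Of the 26 brighter members 7 were higher by more than 1 standard deviation (26.9%) and none lower, against 26.2% and 15.3% of all brighter genes. The share on the higher side was thus near that of brighter genes as a whole. In all, 12 of the 33 were within 0.1 of no difference, 20 were more than 0.1 higher and 1, Tyms, was more than 0.1 lower. More genes were past 0.1 lower once the trend of difference with brightness over all genes was subtracted. Tyms then stood at -0.23, Slbp at -0.19, Clspn at -0.15, Cdc6 and E2f2 at -0.14, and Rrm1 and Uhrf1 at -0.12. Of the 33, 22 were then higher and 11 lower. The share of all genes past 0.1 was not counted, and 0.1 is less than 1 standard deviation of probe sets.

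**Figure D1:**
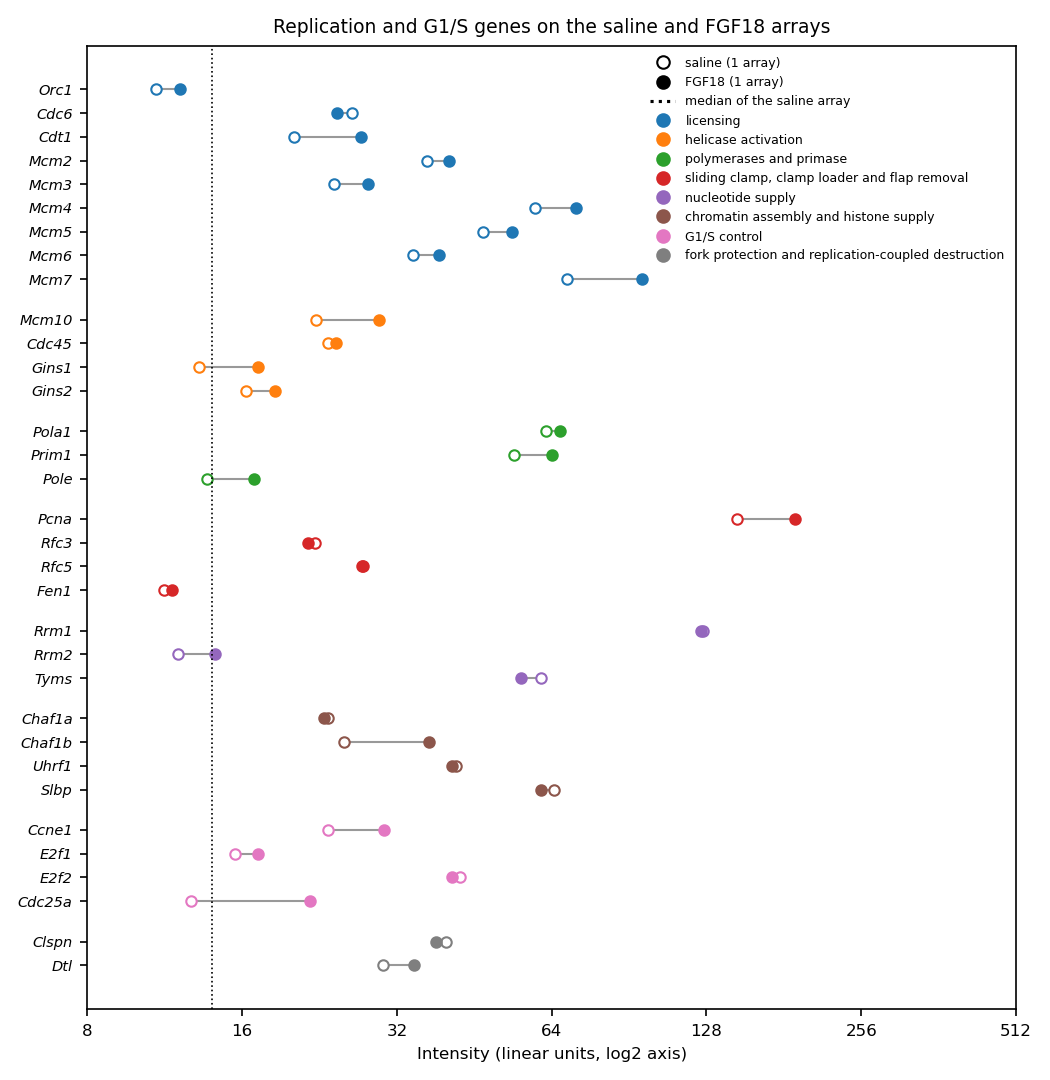
Intensity of each of the 33 genes on the saline array (open circle) and the FGF18 array (filled circle), on a log2 axis, with genes grouped by role and coloured by it; the dotted line is the saline array's median. The filled circle lies to the right of the open circle for 24 genes, by most for Cdc25a (below the median in saline), Chaf1b and Mcm7, and to the left for 9.

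**Figure D2:**
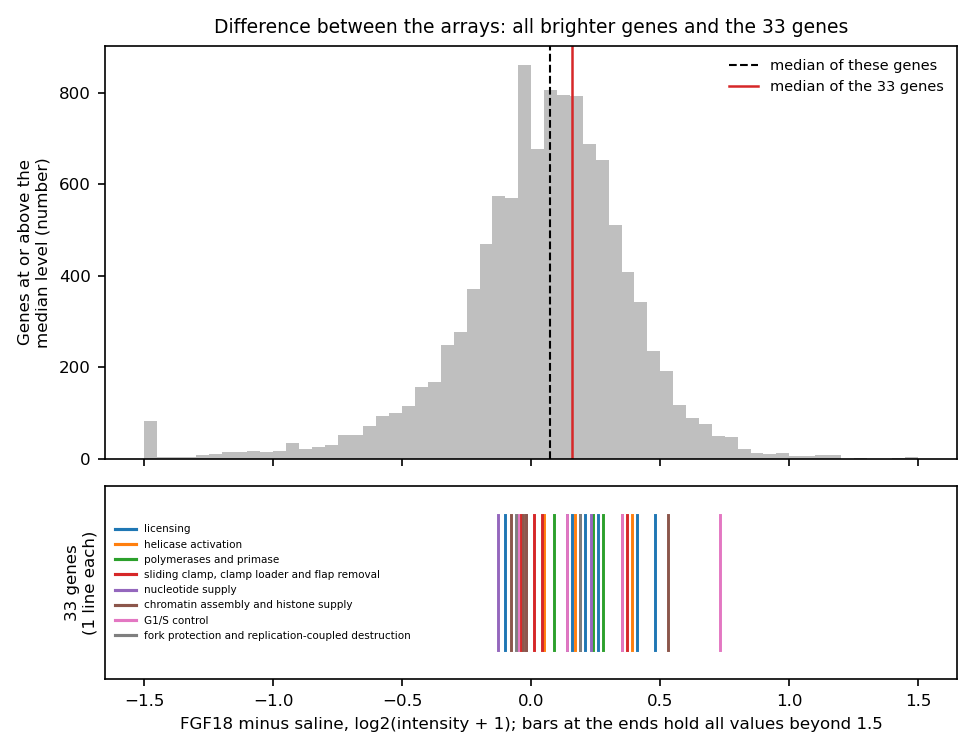
Number of genes by difference between the arrays (FGF18 minus saline, log2 scale) for the 11090 genes at or above the median level, above the 33 replication genes drawn as 1 line each and coloured by role. The median of the brighter genes is 0.07 and that of the 33 genes 0.16, and the lines run from -0.13 (Tyms) to 0.73 (Cdc25a), a value that 1.49% of the brighter genes reached.

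Of 9 licensing genes 8 were higher on the FGF18 array, with a median difference of 0.19. The 6 subunits of the MCM ring, the motor of the replicative helicase, were all higher, with a median of 0.20. The trend of difference with brightness over all genes is called the brightness trend. Once it was subtracted all 6 stayed higher but by less, from 0.05 (Mcm2) to 0.37 (Mcm7), with a median of 0.12. Mcm5 and Mcm6 then stood at 0.08 each and Mcm4 at 0.16. Mcm7 read 68.6 on the saline array and 95.9 on the FGF18 array, a difference of 0.48 (1.39-fold), and 7.05% of brighter genes differed by as much in that direction. Mcm4 read 59.3 and 71.3 in saline and FGF18, a difference of 0.26. The other 4 subunits lay closer together and closer to 0. Mcm3 read 24.1 in saline and 28.1 after FGF18, a difference of 0.21. Mcm5 read 47.1 and 53.7, a difference of 0.19, and Mcm6 read 34.4 and 38.7, a difference of 0.16. Mcm2 differed least within the ring, with 36.7 in saline, 40.4 after FGF18 and a difference of 0.14. Apart from Mcm7 and Mcm4, these differences were smaller than the standard deviation of 0.24 of a probe set's difference within its gene.

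The loading factors went different ways. Cdt1, which brings the MCM ring to origins and is destroyed once S phase starts, read 20.2 in saline and 27.2 after FGF18, a difference of 0.41 (1.33-fold). Cdc6, the ATPase that loads the ring together with it, read 26.2 and 24.5, a difference of -0.10. Orc1, the origin recognition subunit that comes and goes with the cell cycle, was below the median on both arrays, at 10.9 and 12.1. Of 9 further licensing genes 8 were higher, with a median of 0.17 (7 and 0.08 without the brightness trend). Orc2, another origin recognition subunit, was the highest of them at 0.54 (40.2 in saline, 59.0 after FGF18). Gmnn, which encodes geminin, the protein that holds Cdt1 inactive after origins have fired, was the lowest at -0.33 (30.5 and 24.1). Cdt1 and its inhibitor differed in opposite directions, but Gmnn is named here as the lowest of 9 genes, and no link was tested.

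Genes that turn the loaded ring into a helicase were all 4 higher, with a median of 0.26, and of 0.17 over the 3 above both array medians. Mcm10, which is needed for the first unwinding, read 22.3 in saline and 29.5 after FGF18, a difference of 0.39 (1.31-fold). Cdc45, the factor that stays with the moving helicase, read 23.5 and 24.4 and was near equal, at 0.05. The GINS subunit gene Gins2 read 16.3 and 18.5, a difference of 0.17, and Gins1 read 13.2 in saline, below that array's median, and 17.2 after FGF18. The other GINS subunits did not follow: Gins4 had the same intensity of 52.6 on both arrays, and Gins3 read 39.3 and 34.6, a difference of -0.18 and the lowest among 10 further genes of this step. Of those 10, 7 were higher, with a median of 0.17 (6 and 0.09 without the brightness trend), and Donson, which helps to bring GINS to the ring, stood highest at 0.46 (23.7 in saline, 32.95 after FGF18).

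The 3 polymerase and primase genes were higher by small amounts, and Pola1 not under every scaling. Prim1, the catalytic subunit of primase, which lays the RNA primer, read 54.1 in saline and 64.2 after FGF18, a difference of 0.24. Pola1, the catalytic subunit of polymerase alpha that extends this primer, read 62.4 and 66.4, a difference of 0.09 that turned to -0.02 once the brightness trend was subtracted. Pole, the catalytic subunit of the leading-strand polymerase, had 2 probe sets. The brighter went from 28.2 to 35.6, a difference of 0.32, and the dimmer from 6.44 to 7.78, below the median on both arrays. Of 9 further polymerase and primase genes 8 were higher, with a median of 0.20 (8 and 0.14 without the brightness trend). Pold1, the catalytic subunit of the lagging-strand polymerase, was the highest at 0.39 (28.2 and 37.2), and Pold4, its smallest and accessory subunit, the lowest at -0.31 (29.4 and 23.5).

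Of the 4 clamp genes among the 33, Pcna alone differed by more than 1 standard deviation of a probe set's difference within its gene. Pcna forms the ring that tethers polymerases to DNA, and its transcript is also a known target of p53. It read 147 in saline and 190 after FGF18, a difference of 0.37 (1.29-fold), reached by 13.6% of brighter genes. Without the brightness trend Pcna stood at 0.26. The clamp loader subunits Rfc5 and Rfc3 were near equal, with 27.4 and 27.5 for Rfc5 and 22.2 and 21.5 for Rfc3, differences of 0.01 (-0.05 without the brightness trend) and -0.04. Fen1, which trims the flaps between Okazaki fragments, was dim, and its probe sets pointed opposite ways, from 13.9 to 15.8 and from 9.20 to 8.51. Of 14 further genes of this role 11 were measured, with 7 higher and a median of 0.07 (5 higher and -0.005 without the brightness trend). Rnaseh2b, a subunit of the enzyme that removes RNA from DNA, was the highest at 0.67 (30.8 in saline, 49.8 after FGF18), and Rpa1, of the single-strand binding complex, was the lowest of those above the array medians at -0.12 (15.3 and 13.9).

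Nucleotide supply genes among the 33 did not move together. Rrm1, the large subunit of ribonucleotide reductase, read 126 in saline and 125 after FGF18, and Tyms, which makes thymidylate, read 60.9 and 55.7, a difference of -0.13 that was the lowest of all 33. Rrm2, the small reductase subunit that is made in S phase, had a brighter probe set that went from 35.1 to 44.0 (0.32) and a dim one at 3.67 and 4.15. Wider differences in this role were found outside the 33. Ctps, which makes CTP, read 71.95 in saline and 158 after FGF18, a difference of 1.12 (2.18-fold). Samhd1, which breaks deoxynucleotides down, read 97.9 and 58.0, a difference of -0.74 (1.67-fold lower). Over 14 measured further genes of this role 11 were higher, with a median of 0.12. Without the brightness trend 8 of the 14 were higher, with a median of 0.06, as Rrm2b, Dtymk and Paics, all near 0, turned lower.

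Of the 4 chromatin genes among the 33, Chaf1b alone was higher. It encodes a subunit of CAF-1, which places new histones behind the fork, and it read 25.3 in saline and 37.0 after FGF18, a difference of 0.53 (1.44-fold), the highest of the 27 of the 33 above both array medians. Among brighter genes 5.05% differed by as much in that direction. Chaf1a, which encodes the large subunit of the same complex, read 23.5 and 23.1, a difference of -0.02. Uhrf1, which guides DNA methylation onto new strands, read 41.7 and 40.9, and Slbp, which binds the ends of histone mRNAs, read 64.6 and 61.1, with differences of -0.03 and -0.08. Of 11 measured further genes of this role 10 were higher, and their median was 0.15 (9 and 0.06 without the brightness trend). Npat, an activator of histone genes, was the highest at 0.35 (36.7 and 47.2), and Hat1, a histone acetyltransferase, the lowest at -0.03 (36.2 and 35.4).

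**Figure D3:**
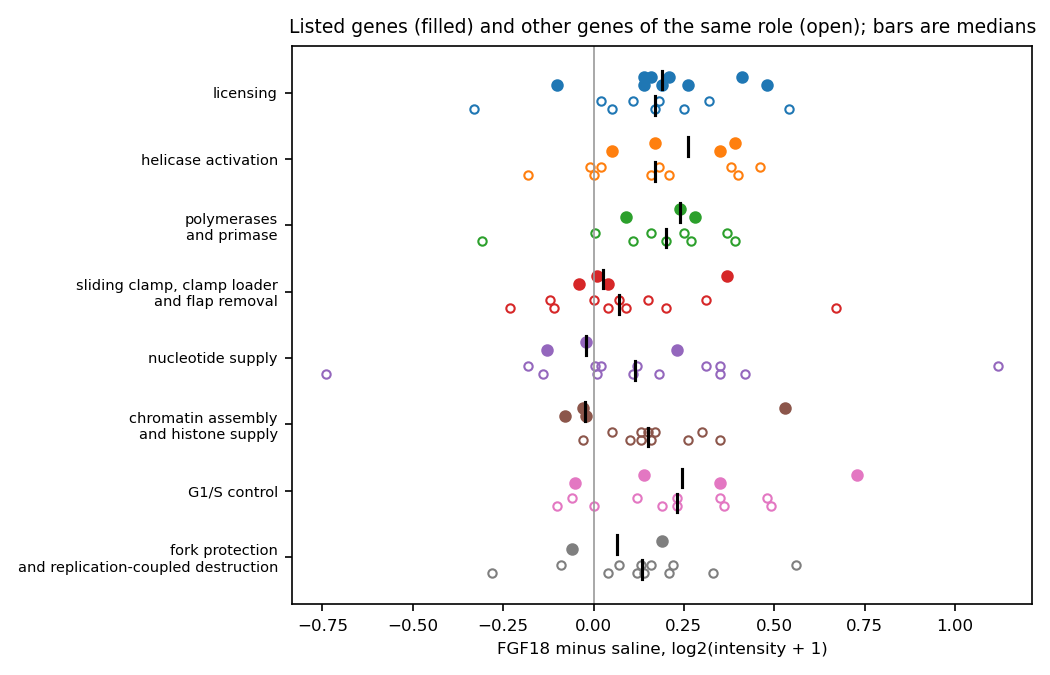
Differences (FGF18 minus saline, log2 scale) by role, with filled circles for the 33 genes, open circles for the other measured genes of the same role and black bars for the medians of each. The medians of the other genes run from 0.07 (clamp, -0.005 without the brightness trend) to 0.23 (G1/S control) over the 8 roles. Those of the 33 genes run from -0.02 (nucleotide supply, chromatin assembly) to 0.26 (helicase activation, 0.17 over its 3 genes above both array medians).

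Of the 4 G1/S regulators among the 33, 3 were higher on the FGF18 array. Cdc25a, the phosphatase that frees cyclin-dependent kinases to act and that is destroyed after DNA damage, read 12.7 in saline, below that array's median, and 21.7 after FGF18. Ccne1, the cyclin E that partners the S-phase kinase, read 23.5 and 30.2, a difference of 0.35 (1.27-fold) that was 0.29 without the brightness trend. The E2F genes themselves were nearer to equal, with 15.5 and 17.2 for E2f1 (0.14) and 42.4 and 41.0 for E2f2 (-0.05). Of 11 measured further regulators 8 were higher, with a median of 0.23 (8 and 0.12 without the brightness trend). Tfdp2, a partner of E2F proteins, was the highest at 0.49 (42.4 in saline, 59.9 after FGF18), and the repressor gene E2f7 the lowest at -0.10 (19.6 and 18.2).

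The last pair of genes act at the fork. Dtl, which marks Cdt1 for destruction when it meets the clamp, read 30.1 in saline and 34.6 after FGF18, a difference of 0.19, and Clspn, which relays a stalled fork to the checkpoint kinase Chek1, read 39.8 and 38.2, a difference of -0.06. Of 12 further genes of this role 10 were higher, with a median of 0.14 (8 and 0.08 without the brightness trend). Tipin, which with Timeless steadies the fork, was the highest at 0.56 (22.7 and 34.1), and Chek1 the lowest at -0.28 (22.1 and 18.0).

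Over all 8 roles the further genes leaned to the FGF18 side as the 33 did. Of 94 listed genes 87 were measured. Of these, 69 (79.3%) lay on the FGF18 side and 15 on the saline side, and the median was 0.15. Once the brightness trend was subtracted, 59 of the 87 and 22 of the 33 were higher, with medians of 0.07 and 0.12. Before that subtraction, 18 of the 87 were higher by 0.32 or more and 2 lower by as much, Samhd1 and Gmnn. Brighter genes made up 82 of the 87. Among all brighter genes, before the same subtraction, 59.4% were higher, with a median of 0.07. A difference of 0.32 or more was reached by 17.4% of them on the higher side and 11.5% on the lower.

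Read by complex, subunits of the same machine often differed by unlike amounts. All 6 origin recognition genes were higher, from 0.02 (Orc6, which is -0.09 once the brightness trend is subtracted) to 0.54 (Orc2). Orc1, 1 of the 6, was below the median on both arrays. All 6 MCM ring genes were higher too, from 0.14 to 0.48 (0.05 to 0.37 without the brightness trend). Of brighter genes as a whole 59.4% were higher. The 4 genes of polymerase alpha with primase ran from 0.09 (Pola1, -0.02 without the brightness trend) to 0.37 (Prim2). The 4 of polymerase epsilon ran from 0.11 (Pole4) to 0.28 (Pole, whose averaged intensity of 13.7 in saline was below that array's median). GINS spread from -0.18 (Gins3) upward, polymerase delta from -0.31 (Pold4) to 0.39 (Pold1), and CAF-1 from -0.02 (Chaf1a) to 0.53 (Chaf1b), with Rbbp4 between them at 0.15. The 4 measured clamp loader genes were the flattest, from -0.11 (Rfc1) to 0.01 (Rfc5).

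**Figure D4:**
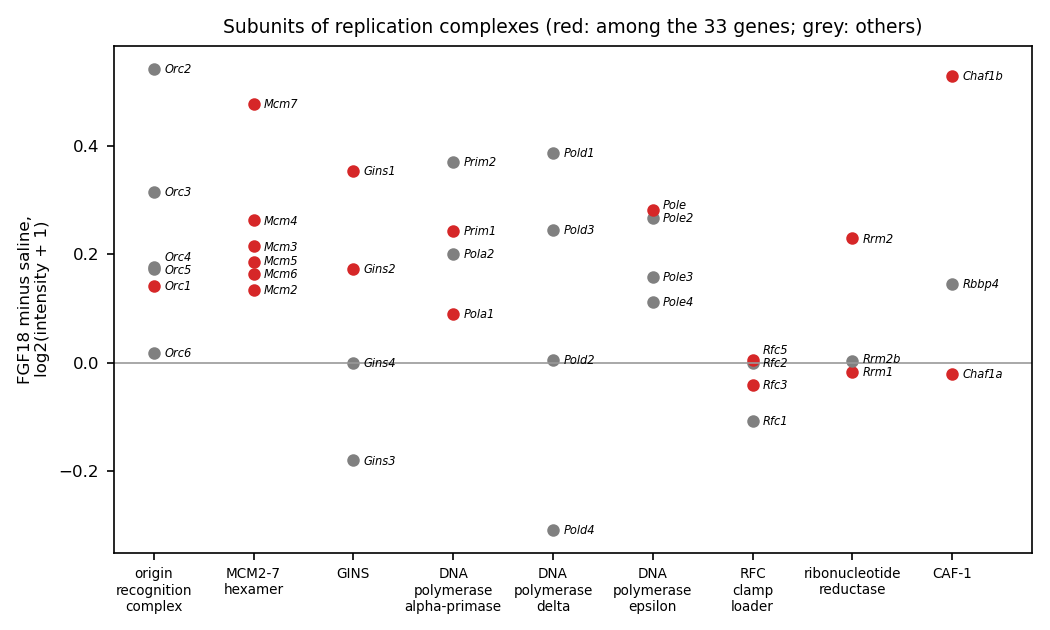
Difference (FGF18 minus saline, log2 scale) of each subunit gene in 9 replication complexes, in red for the 33 genes and in grey for others. The origin recognition and MCM columns lie wholly above 0, the clamp loader column lies at or near 0, and the polymerase delta column spans -0.31 to 0.39. Orc1 in the origin recognition column was below the median on both arrays.

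E2F proteins act through a short site near the start of their target genes, so the starts of the 33 genes were searched for it. RefSeq promoter sequences (GRCm38.p6, from 250 bases before to 50 after a start) were at hand for 29 of them. The letters searched were TTTGGCGC, TTTCCCGC, TTTCGCGC and TTTGCCGC on either strand, and 14 of the 29 genes (48.3%) held at least 1 match, against 2.60% of 27025 genes in the same table and 4.60% of 8711 brighter genes with an entry. In 10 of the 14 at least 1 match lay wholly before the start. The stretches below show 3 genes with a match that read higher after FGF18, 1 with a match that was near equal, and Chaf1b, which was higher without a match. Of the 3, Mcm6 (0.16) and Mcm5 (0.19) stood at 0.08 each without the brightness trend, and Cdc25a was below the saline array's median. They are written 5′ to 3′ on the strand of the gene, and capitals mark the E2F letters.

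The stretch of Mcm6 lies at chr1:128359706-128359955 on the minus strand and ends at the base before the start, with 3 matches of which the first 2 overlap.
Mcm6: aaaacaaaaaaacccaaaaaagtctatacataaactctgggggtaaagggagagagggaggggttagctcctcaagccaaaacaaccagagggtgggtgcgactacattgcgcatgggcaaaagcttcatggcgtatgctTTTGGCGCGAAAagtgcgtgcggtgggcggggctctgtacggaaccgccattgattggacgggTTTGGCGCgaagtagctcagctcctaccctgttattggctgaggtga
The stretch of Mcm5 lies at chr8:75109259-75109467 on the plus strand and holds 2 overlapping matches on opposite strands.
Mcm5: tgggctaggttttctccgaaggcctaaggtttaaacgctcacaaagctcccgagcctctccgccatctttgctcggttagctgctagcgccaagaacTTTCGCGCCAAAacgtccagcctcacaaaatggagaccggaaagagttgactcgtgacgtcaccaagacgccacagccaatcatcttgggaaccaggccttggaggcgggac
For Cdc25a only the 30 bases around its match are shown, at chr9:109875501-109875530 on the plus strand.
Cdc25a: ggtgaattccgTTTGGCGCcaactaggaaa
The stretch of Rfc3 lies at chr5:151651209-151651358 on the minus strand, with 1 match close to the start. A second match of Rfc3 begins at base 1 after the start, past the end of the stretch.
Rfc3: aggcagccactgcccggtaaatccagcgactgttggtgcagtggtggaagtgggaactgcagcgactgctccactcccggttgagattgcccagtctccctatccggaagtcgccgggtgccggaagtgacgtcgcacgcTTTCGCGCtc
The stretch of Chaf1b lies at chr16:93883651-93883899 on the plus strand and holds none of the 4 words.
Chaf1b: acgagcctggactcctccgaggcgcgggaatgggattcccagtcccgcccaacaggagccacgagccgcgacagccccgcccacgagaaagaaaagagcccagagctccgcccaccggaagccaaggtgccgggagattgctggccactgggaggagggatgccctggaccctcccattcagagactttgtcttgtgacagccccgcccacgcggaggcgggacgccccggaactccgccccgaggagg

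Whether a gene held the E2F letters did not separate the genes by difference. The 14 genes with a match had a median difference of 0.15, with 9 of them higher and a range from -0.10 to 0.73, and the 15 without had a median of 0.14, with 11 higher and a range from -0.13 to 0.53. A missing match says only that these words are not in these windows. The CCAAT box (CCAAT, either strand) was found in 21 of the 29 genes (72.4%) and in 41.1% of all genes, and it overlapped an E2F match once. The cell cycle homology word (TTTGAA or TTCGAA, either strand) was found in 6 of the 29 (20.7%) and in 21.7% of all genes. Base composition was not matched in these shares.

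**Figure D5:**
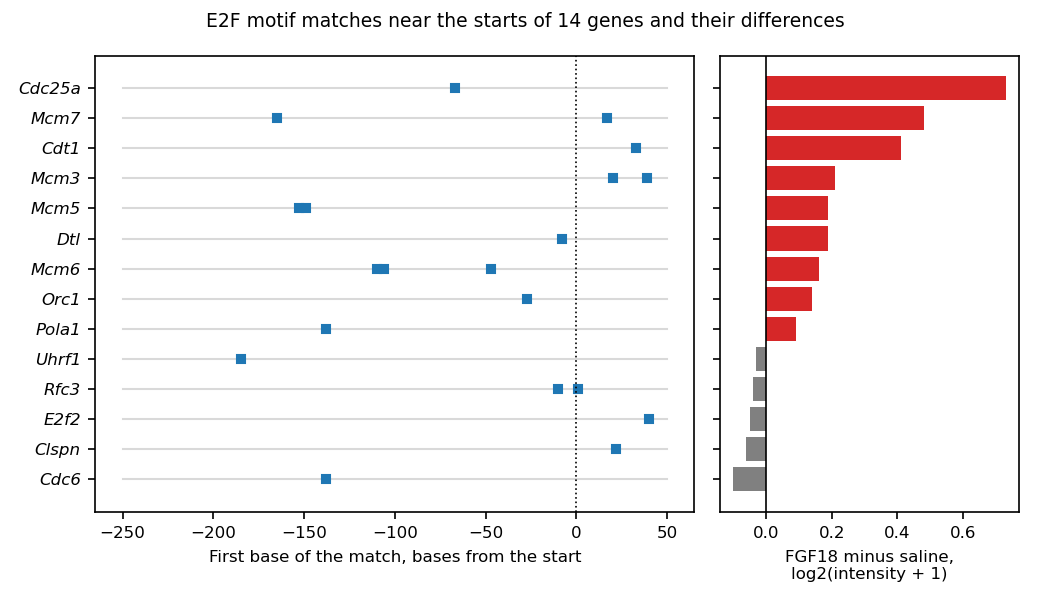
Left, first base of each E2F match in bases from the start (dotted line) for the 14 genes that hold one, with windows from 250 bases before to 50 after; right, the difference of each gene (FGF18 minus saline, log2 scale) as bars from 0. Matches lie on both sides of the start, and 9 of the 14 bars point to the FGF18 side.

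Genes of the next cell cycle phases lay more often on the saline side. Of 22 genes of G2 and mitosis 9 were higher and 12 lower, and the median was -0.06, beside 24 higher, 9 lower and 0.16 for the 33. Among brighter genes, which 21 of the 22 were, 59.4% were higher and 38.0% lower. Without the brightness trend the medians of the 22 and of the 33 were -0.15 and 0.12. Cdk1, the mitotic kinase, read 63.9 in saline and 48.1 after FGF18, a difference of -0.40 (1.32-fold lower). The spindle genes Prc1 and Nuf2 marked the ends of that group at -0.47 and 0.47, and Mki67, a marker of cycling cells, read 275 and 343, a difference of 0.32. No test of the difference between the 2 groups of genes can be had with 1 array per group.

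Among the listed genes that p53 induces, 5 of 7 measured were higher, with a median of 0.17 (4 of 7 and 0.06 without the brightness trend). All 7 were brighter genes, and of brighter genes as a whole 59.4% were higher, with a median of 0.07. Cdkn1a, the inhibitor of cyclin-dependent kinases, read 193 and 227, a difference of 0.23. Btg2, an antiproliferative gene, stood at 0.29 and Mdm2, the ligase that degrades p53, at -0.12.

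Markers of the cell types that skin can hold also differed between the arrays, and all measured keratinocyte markers were above both array medians. All 9 markers of differentiated keratinocytes were lower after FGF18, with summed intensities of 16247 in saline and 4335 after FGF18, from Lor at -0.95 to Krt1 at -2.96. All 7 measured markers of the hair matrix, where many of the dividing cells of anagen skin sit, were higher, with sums of 429 and 702, from Shh, which read 10.1 and 11.1, to Hoxc13 at 1.09. Basal keratinocyte markers were higher in 5 of 6, with sums of 1424 and 1398, from Krt14 at -0.81 to Krt15 at 0.40. Macrophage markers were higher in 7 of 7, with sums of 170 and 226 and Lyz2 highest of those above the medians at 0.57. Fibroblast markers were lower in 5 of 7 (sums of 1123 and 1018, from Lum at -0.95 to Dcn at 0.42) and muscle markers in 5 of 7 (4767 and 4534, from Myh2 at -0.68 to Myh1 at 0.36). T cell markers (5 measured, sums of 53.4 and 55.4) and B cell markers (4 measured, sums of 32.2 and 32.3) were not above the array medians on both arrays, nor was Slc4a1, the only measured red cell marker, at 10.4 and 6.43. In whole skin, more cells of a type and more RNA per cell cannot be told apart, and the part of these markers in the replication gene differences was not tested.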

How the data were processed

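Total RNA of back skin was hybridised to 1 whole-transcript array from Affymetrix for saline and 1 for FGF18, and the source names in the labels give the groups. Per the labels' protocols, Trizol was used for extraction and a biotin label for detection. Expression Console and RMA, named in the submitters' processing notes without versions, made the table. The intensity values that the authors deposited are taken to be linear because of their range (1.39 to 11488 in saline, 1.44 to 11532 after FGF18). RMA brings arrays to a shared distribution, so a shift common to most genes would be removed. Arrays have no read depth, and their number limits the precision.

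Of 41345 transcript clusters, the platform annotation gave 23521 exactly 1 symbol, 1814 several and 16010 none. Clusters with 1 symbol were put on the log2(intensity + 1) scale and averaged by symbol (22180 genes). The difference was FGF18 minus saline, and with no replicates none was tested. Counts used differences of 0.32 and 0.58 on the log2 scale, and 2-fold. The averaging by symbol and the difference were run on simulated data without noise, where they returned the differences put in. The other steps were not tested in this way. The design had allowed for log2 values, and the linear ones were transformed as it provided.

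The 33 genes, the role, comparison and marker lists and the rules were chosen with earlier results of these data known. All 33 genes were named. Of each further role list, the highest and the lowest gene above both array medians were named, and of other lists the ends. Cdkn1a, Mki67 and Cdk1 were named in any case. Where listed genes had no cluster with a symbol of their own they were not analysed here (7 of the 94 further genes). The grouping into complexes, and the genes named from it, came after the values were seen, as did the choice of promoter stretches and of Rrm2b in the closing section. The 1671 pairs of overlapping promoter windows on opposite strands were checked to be reverse complements. Alternatives are given in the closing section. Python 3.11.15, pandas 2.3.3, numpy 2.4.6, statsmodels 0.14.6 and matplotlib 3.10.9 were used.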

Additional observations from a re-analysis of the deposited data

How the results depend on the processing

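No gene that differed by 0.32 or more changed direction under the alternatives tried, but most of these could not turn a direction. The alternatives were no pseudocount, a pseudocount of 16, the brightest cluster of each gene, clusters with several symbols under their first, centring all genes at a median of 0, taking off a loess trend (span 0.3) and a filter at the median level. For a gene with 1 cluster, neither a pseudocount nor the filter can change the direction. Centring took off a median of 0.00, and the brightest cluster bears only on the 3 genes with 2 clusters. Clusters with several symbols left the differences of the 33 as they were. For most genes the loess trend was thus the only alternative that could turn a direction. The count of genes higher by 0.32 or more was 8. It was 9 with the brightest cluster, 6 with the loess trend subtracted, 6 with the filter at the median level and 4 with a pseudocount of 16. The median of helicase activation genes was 0.26, and 0.14 with that pseudocount, which shrinks differences of dim genes by construction. With the loess trend subtracted, Pola1 and Rfc5 turned to -0.02 and -0.05, the median of fork genes was -0.01, the median of polymerase and primase genes was 0.14 and of nucleotide supply genes -0.12. The median over the 33 genes was between 0.10 (pseudocount of 16) and 0.17 in all of these. After trend subtraction 66.7% of the 33 were higher, against 50% of all genes, with a median of 0.12. With only genes above both array medians, an alternative chosen after seeing the data, 66.7% of 27 were higher against 58.4% of such genes, with a median of 0.14. Of 198 values of single genes under alternatives, 17 moved by more than 0.1, and many of the 198 came from alternatives that leave most genes unchanged. No paired analysis was possible because each group has 1 array. No replicate could be left out for the same reason.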

Other observations

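Across all brighter genes with a RefSeq promoter entry, 401 held the E2F letters near a start, and 276 of these (68.8%) were higher on the FGF18 array, with a median difference of 0.13. The 8310 without them were higher in 59.1%, with a median of 0.07. For the CCAAT box the shares were 58.8% with it and 60.2% without, and for the cell cycle homology word 59.1% and 59.7%. These shares describe 2 arrays, genes are not replicates, and the replication genes are among the 401. Rrm2b, the p53-induced reductase subunit, read 34.3 on both arrays.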
